A study of Bos taurus with 16 samples.

Results

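The genes described here are 10 transcription factors of the mammary epithelium, ELF5, GATA3, EHF, ELF3, FOXA1, KLF5, NFIB, TFAP2A, TFAP2C and GRHL2. They were chosen by name, with earlier results of these data known. Each was found on the array under exactly 1 gene symbol and through 1 probe set, so they make up 10 of the 18444 genes that the array annotation names in this way. They were measured in needle biopsies of the mammary gland from 16 female heifers of the Parda de Montaña, a cattle breed of the Spanish mountains, taken when the first lactation ended. In the CON group (n = 8) the heifers had received a starter concentrate beside their dams' milk from birth to 6 months of age, and in the NOCON group (n = 8) they had had dam's milk only. All suckled their dams in sessions of 30 minutes before weaning. Between 6 and 15 months each feeding group was further split between rations of 67% forage with 33% concentrate and of 87% forage with 13% concentrate. The ration of a given heifer is not in the labels, and rations were not compared. Each heifer gave 1 array. The p-values therefore rest on the spread between heifers, to which biopsy, RNA and array also contribute.

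Luminal epithelial cells of the mammary gland line the ducts and alveoli and make the milk, and a small set of transcription factors sets them apart from the basal cells around them. In mouse, GATA3 is needed to form and keep the luminal lineage, FOXA1 works with the oestrogen receptor in the hormone-sensing cells, and ELF5 drives the milk-secreting alveolar fate downstream of prolactin. EHF and ELF3 are ETS factors of simple and glandular epithelia, related to ELF5. GRHL2, KLF5 and the AP-2 factors TFAP2A and TFAP2C keep up the epithelial programme in many tissues, and NFIB binds milk protein genes in mouse. In the RefSeq gene table of the cattle assembly ARS-UCD2.0, used here for names and gene order alone, no protein-coding gene lies between ELF5 and EHF.

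Expression is given as the deposited log2 values, on which a difference of 1 is a doubling of signal. The median of an array lay between 4.25 and 4.57, and values reached 12.66. Of the 16 arrays, 5 (CON 2, CON 6, CON 7, NOCON 1 and NOCON 5) stood apart, with a median correlation to the others of 0.866 to 0.974, against 0.986 to 0.989 on the other 11. CON 7 was the farthest, and its interquartile range of 1.49 was narrower than the 1.96 to 2.15 of the other 11. The results on the 10 factors are therefore given with and without these arrays. The biopsies read as mammary tissue: the casein gene CSN2 averaged 12.38 ± 0.06 (SD) in the 8 CON arrays and 12.27 ± 0.08 in the 8 NOCON arrays. Of 12 luminal epithelium markers, 2 averaged under 5, KRT8 (4.25) and CLDN4 (4.96), and so did all 10 markers of skin epidermis, a tissue in which several of these factors are also active. Of the epidermis markers, KRT10 (4.51) and LORICRIN (4.73) lay under the array median on no array, and the others on 14 or more. KRT8 lay under it on 11. In a bulk biopsy, fewer epithelial cells and less RNA per cell cannot be told apart.

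None of the 10 transcription factors differed between CON and NOCON at an adjusted p of 0.05. The levels of the 2 groups overlapped for every one of them, and the share of all genes with such an overlap was not counted. By comparison, 0.0598% of all 26773 probe sets passed this threshold with limma, 16 in number. Adjusted p-values of the 10 ran from 0.626 (ELF3) to 0.956 (GRHL2), and at an unadjusted limma p of 0.05, which 8.67% of all probe sets met, the count of the 10 was also 0. The exact two-sided permutation test over the 12870 regroupings of the arrays gave unadjusted p-values between 0.135 (ELF3) and 0.872 (GRHL2), again with 0 of 10 under 0.05, against 10.4% of all probe sets. Means were lower in CON for 9 of the 10, GATA3 being the exception, against 51.1% of all genes, and the median difference (CON minus NOCON) was -0.10, against -0.0037 over all genes. Without CON 7, 6 of the 10 had a lower mean in CON, against 51.3% of all genes, and the median difference was -0.03. In that fit 0 of 10 passed, against 0.0747% of all probe sets. Without the 5 arrays of low correlation it was also -0.03, with 7 of 10 lower, while 52.1% of all genes were. There too 0 of 10 passed, against 0.0859% of all probe sets, and 0 had an unadjusted limma p under 0.05, against 8.62%. Taken relative to the mean of luminal markers on each array, which itself differed by -0.13, the direction turned for 6 of the 10 (ELF5, ELF3, KLF5, NFIB, TFAP2C and GRHL2). This step shifts the difference of every gene by the same amount, so the 6 are those with the smallest negative differences.

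**Figure D1:**
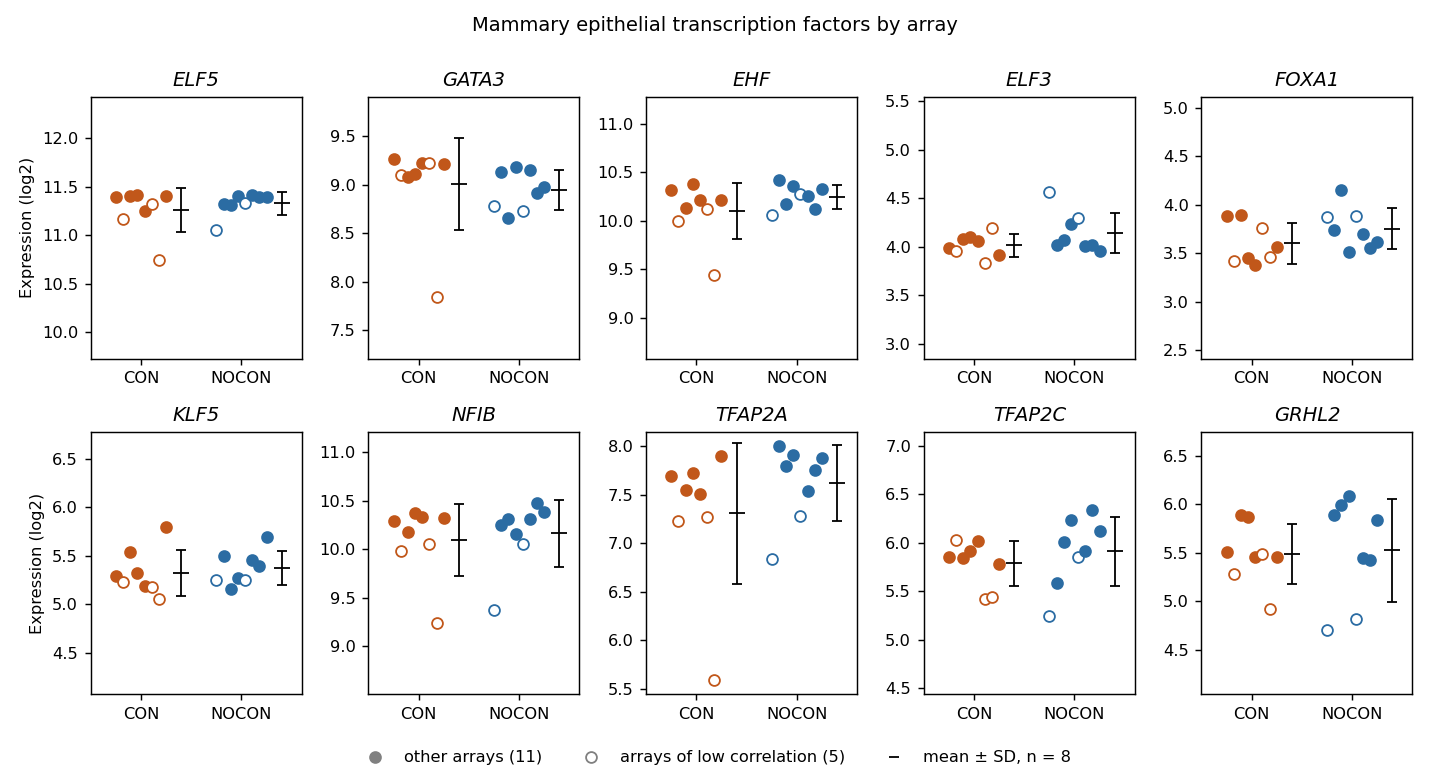
Expression (log2) of the 10 transcription factors on each array, CON left of NOCON; every panel spans the same number of log2 units, open circles are the 5 arrays of low correlation, filled circles the other 11, and bars give mean ± SD (n = 8). The lowest CON value of ELF5, GATA3, EHF, NFIB, KLF5, TFAP2A and GRHL2 is the open circle of CON 7.

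ELF5, the alveolar factor, was among the brightest probe sets, with 99.7% of the array at or below it (median over arrays). Levels of the 10 genes were not ranked against each other, since probe sets differ in how well they bind. In CON, ELF5 had 10.74, 11.36 and 11.42 (lowest, median and highest of 8 arrays), against 11.05, 11.36 and 11.41 in NOCON. The medians were nearly the same, and 1 low array in each group, CON 7 and NOCON 1, made up most of the range. The difference was -0.06 (SE 0.09; 95% confidence interval -0.26 to 0.13; limma adjusted p = 0.811). On the 11 remaining arrays it was 0.00 (interval -0.09 to 0.09), and the SD over those arrays was 0.05, a spread at percentile 8.05 among all genes. Array signals near the top of the scale can be compressed, and the part of this in the small spread was not tested.

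EHF, the neighbour of ELF5, was at 9.44, 10.17 and 10.37 in CON (lowest, median and highest), against 10.06, 10.26 and 10.42 in NOCON. CON 7 was again the low array, and the other CON arrays lay within the NOCON range apart from CON 2 at 9.99. The difference of -0.15 (SE 0.11; interval -0.38 to 0.08; limma adjusted p = 0.66) was -0.05 without CON 7 and -0.03 (interval -0.17 to 0.11) without the 5 arrays. ELF3 was dim in this tissue: 15 of its 16 values lay under the median of their array. In CON it read 3.83, 4.02 and 4.19, against 3.95, 4.04 and 4.56 in NOCON. Its highest values were on NOCON 1 (4.56) and NOCON 5 (4.29), both arrays of low correlation, and the difference of -0.13 (SE 0.08; interval -0.31 to 0.04) was -0.02 (interval -0.14 to 0.10) without the 5 arrays. Values of dim probe sets hold much background, which shrinks differences.

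GATA3, the luminal lineage factor, was the member with a higher mean in CON. It had 7.85, 9.17 and 9.27 in CON (lowest, median and highest), against 8.66, 8.95 and 9.19 in NOCON. The 7 CON arrays other than CON 7 lay between 9.08 and 9.27, and the 5 lowest NOCON arrays (8.66 to 8.98) lay below all of these 7. The difference over 16 arrays was 0.07 (SE 0.17; interval -0.30 to 0.43; limma adjusted p = 0.905). Leaving out CON 7 gave 0.23 (SE 0.08), with an unadjusted limma p of 0.0106, a level met by 1 of the 10 factors; in that fit 9.17% of all probe sets had an unadjusted p under 0.05. Its adjusted p was 0.414, so the difference did not pass. Without the 5 arrays it was 0.18 (interval -0.02 to 0.37; adjusted p = 0.637).

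FOXA1, the partner of the oestrogen receptor, lay under the array median on all 16 arrays. It had 3.37, 3.51 and 3.90 in CON, against 3.51, 3.72 and 4.15 in NOCON. The ranges overlapped widely, and the highest value was on NOCON 3, an array of high correlation. The difference was -0.15 (SE 0.10; interval -0.37 to 0.07; limma adjusted p = 0.637) and -0.08 (interval -0.36 to 0.21) without the 5 arrays. Although dim, FOXA1 varied more than most genes on the 11 remaining arrays: its SD of 0.23 was at or above that of 88.1% of genes.

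TFAP2A had the widest spread of the 10 over all arrays, with an SD of 0.59 that 95.4% of genes did not exceed. Its values in CON were 5.59, 7.52 and 7.90 (lowest, median and highest), against 6.83, 7.78 and 8.00 in NOCON. CON 7 lay far below the next CON array (7.23), and the 5 lowest values of TFAP2A over both groups were those of the 5 low-correlation arrays. The difference was -0.32 (SE 0.27; interval -0.90 to 0.27; limma adjusted p = 0.703), the largest in size of the 10. It was -0.07 without CON 7 and -0.14 (SE 0.09; interval -0.34 to 0.06; adjusted p = 0.74) without the 5 arrays. Its relative TFAP2C, at 5.43, 5.85 and 6.03 in CON against 5.25, 5.96 and 6.34 in NOCON, was lowest on NOCON 1. The CON values lay inside the NOCON range, and the difference was -0.12 (SE 0.14; interval -0.43 to 0.18) over all arrays and -0.15 (interval -0.40 to 0.10) without the 5.

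NFIB, of the nuclear factor I family, had 9.23, 10.23 and 10.37 in CON, against 9.37, 10.28 and 10.48 in NOCON. Here too 1 array in each group, CON 7 and NOCON 1, stood far below the others, and the 5 arrays of low correlation held the 5 lowest values. The difference was -0.07 (SE 0.17; interval -0.43 to 0.29; limma adjusted p = 0.9) and, without the 5 arrays, -0.02 (SE 0.06; interval -0.15 to 0.11). The SD of NFIB was 0.35 over 16 arrays and 0.09 over the 11. KLF5 was at 5.06, 5.26 and 5.79 in CON against 5.16, 5.33 and 5.69 in NOCON, with a difference of -0.05 (SE 0.10; interval -0.26 to 0.17; limma adjusted p = 0.877) and of 0.01 (interval -0.25 to 0.27) without the 5 arrays. Its SD was 0.20 over 16 arrays and 0.20 over the 11. Its highest values were on CON 8 and NOCON 8, neither of them an array of low correlation.

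GRHL2, a grainyhead factor that keeps epithelial cells joined to each other, had 4.92, 5.47 and 5.89 in CON, against 4.71, 5.64 and 6.08 in NOCON. The 4 lowest values came from NOCON 1 (4.71), NOCON 5 (4.82), CON 7 (4.92) and CON 2 (5.28), all arrays of low correlation, and both groups held some of them. The difference was -0.04 (SE 0.20; interval -0.47 to 0.39; limma adjusted p = 0.956) and -0.14 (SE 0.14; interval -0.45 to 0.17) without the 5 arrays. On those 11 arrays GRHL2 had the largest SD of the 10, with a value of 0.25 that 91.6% of genes did not exceed.

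**Figure D2:**
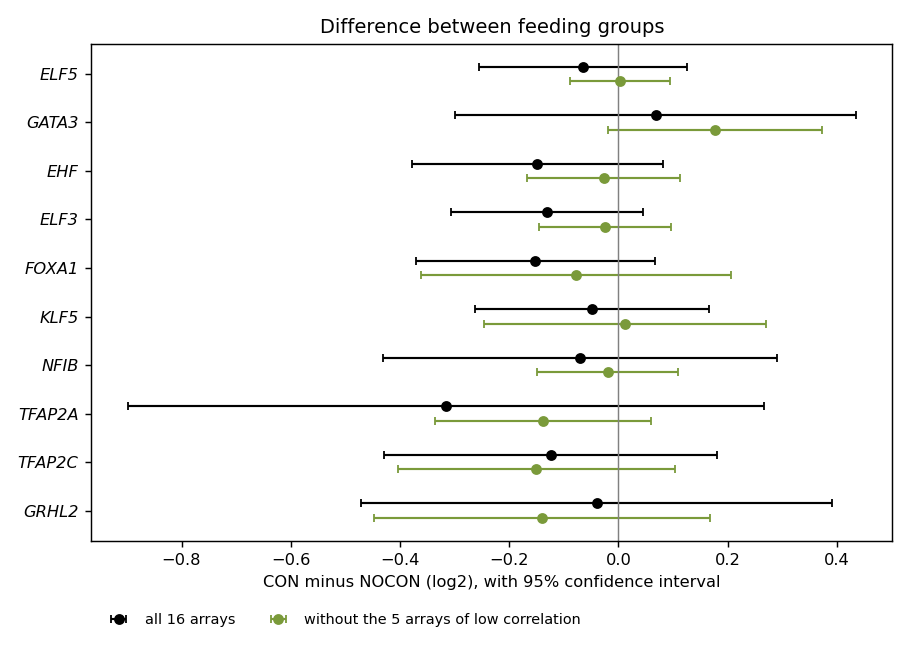
Difference between the feeding groups (CON minus NOCON, log2) for each transcription factor with its 95% confidence interval from limma, over all 16 arrays (black) and without the 5 arrays of low correlation (green). All 20 intervals include 0, and the interval of TFAP2A, -0.90 to 0.27 over 16 arrays, narrows to -0.34 to 0.06.

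Because the same few arrays recurred among the low values, each of them was set against the median of the 11 arrays of higher correlation, gene by gene. On CON 7, TFAP2A lay at -2.16 relative to that median, GATA3 at -1.28, NFIB at -1.08, GRHL2 at -0.92, EHF at -0.82 and ELF5 at -0.65. Genes in general shifted on this array by level: the 1987 genes between 7 and 9 had a median deviation of -1.35, the 493 genes between 9 and 11 one of -0.81, and the 11415 genes below 5 one of 0.26. Taken with genes of their own level, all 10 factors lay on CON 7 within the middle range (percentiles 5 to 95), TFAP2A in a band of -2.50 to 0.07 and ELF5, at the edge, in a band of -0.66 to 0.30. The dim pair, ELF3 (0.17) and FOXA1 (-0.16), did not share the low values of the bright factors. Markers of other cell types moved on CON 7 too: the mean of 7 endothelium markers was at -1.27 relative to its average over arrays, that of 9 basal and myoepithelium markers at -0.82, that of 12 luminal markers at -0.52 and that of 10 epidermis markers at 0.46. The part of cell make-up in the values of the factors was not tested.

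Over the 5 arrays, 3 of the 50 values fell outside the middle range of their level. GRHL2 on NOCON 5, at -1.02, was below a band of -0.79 to 0.62, although genes of this level had a median deviation of -0.02 on that array. ELF5 on NOCON 1, at -0.34, was below a band of -0.31 to 0.33 that rests on 54 genes. ELF3 on NOCON 1, at 0.54, was above a band of -0.38 to 0.49. NFIB (-0.94), GRHL2 (-1.13) and TFAP2A (-0.92) were also low on NOCON 1, inside their bands.

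**Figure D3:**
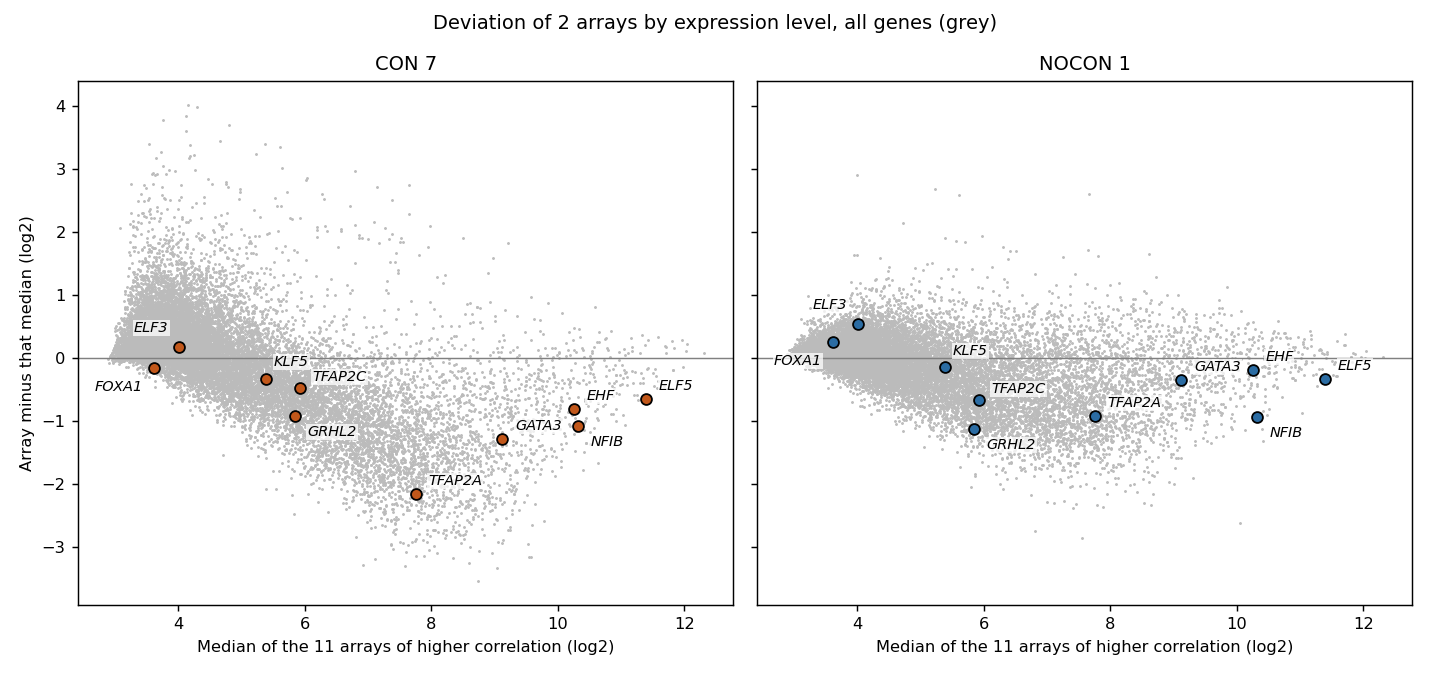
Deviation of array CON 7 (left) and array NOCON 1 (right) from the median of the 11 arrays of higher correlation (y axis, log2) against that median (x axis, log2), for all 18444 genes (grey) and the 10 transcription factors (labelled). On CON 7 genes between 7 and 9 lie lowest, with a median of -1.35, and TFAP2A lies at -2.16 among them.

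Over all 16 arrays several of the factors moved together. Of the 45 pairs among the 10 genes, 14 had a Pearson correlation with a permutation p (100000 resamples, two-sided) under 0.05 after Benjamini-Hochberg adjustment over the 45, all 14 positive. The 14 pairs joined ELF5, GATA3, EHF, NFIB, TFAP2A, TFAP2C and GRHL2, and the other 3 factors, ELF3, FOXA1 and KLF5, entered none of them. ELF5 and TFAP2A had r = 0.93 (Spearman's rho 0.55; adjusted permutation p = 0.00169 for r and 0.123 for rho). EHF and TFAP2A had r = 0.91 (rho 0.70; adjusted permutation p = 0.00169 and 0.0582). ELF5 and NFIB had r = 0.90 (rho 0.55; 0.00169 and 0.123), NFIB and TFAP2A had r = 0.89 (rho 0.61; 0.00045 and 0.122), and the neighbours ELF5 and EHF had r = 0.88 (rho 0.59; 0.00477 and 0.123). TFAP2A and GRHL2 had r = 0.71 and the highest rho of all pairs, 0.71 (0.00608 and 0.0582). With Spearman's rho, 0 of the 45 pairs passed the adjustment, and 12 had an unadjusted permutation p under 0.05.

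How many pairs passed depended on the arrays that stood apart. Without CON 7, 6 pairs passed, with r from 0.68 (EHF and TFAP2A) to 0.82 (NFIB and TFAP2A), while ELF5 and GATA3 had r = 0.34, against 0.80 on 16 arrays. Without NOCON 1, 6 pairs passed as well. Leaving out the 2 arrays farthest from the median of ELF5, CON 7 and NOCON 1, gave r = 0.54 for ELF5 with TFAP2A, 0.53 with NFIB, 0.51 with EHF and 0.09 with GATA3. On the 11 arrays of higher correlation, 0 of 45 pairs passed and 2 had an unadjusted permutation p under 0.05. There ELF5 had r = 0.11 with TFAP2A (rho -0.03), 0.00 with NFIB (rho -0.06) and 0.07 with EHF (rho 0.24). The largest r of the 14 pairs there was that of EHF and TFAP2A, 0.51 (rho 0.39; adjusted permutation p = 0.853), and NFIB and GRHL2 had r = -0.54 (rho -0.67), against 0.68 on 16 arrays. Of the 14 pairs, 6 had a negative r on the 11 arrays.

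Within the feeding groups the exact permutation test was used. The 8 CON arrays gave 6 pairs that passed, with r from 0.86 (ELF5 and GRHL2) to 0.98 (NFIB and TFAP2A), and the lowest adjusted exact permutation p was 0.0167 (EHF and NFIB). Without CON 7, 0 of 45 pairs passed over 7 arrays. The 6 pairs, picked on CON arrays that include these 7, had r between 0.70 (ELF5 and GRHL2) and 0.88 (EHF and NFIB). Their adjusted exact permutation p-values were 0.308 to 0.448. CON 2 and CON 6, both of low correlation, are among the 7. On the 11 arrays of higher correlation r was 0.01 for ELF5 and GRHL2 and -0.25 for EHF and NFIB. The NOCON arrays gave 2 pairs, TFAP2A with GRHL2 (r = 0.92) and ELF3 with NFIB (r = -0.95), both with an adjusted exact permutation p of 0.0262. NOCON 1, which held the highest ELF3 and the lowest NFIB and TFAP2A of its group, is among those 8. Over the 11 arrays of higher correlation r was 0.43 for TFAP2A and GRHL2 and -0.50 for ELF3 and NFIB. Both had an adjusted permutation p of 0.853 there.

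**Figure D4:**
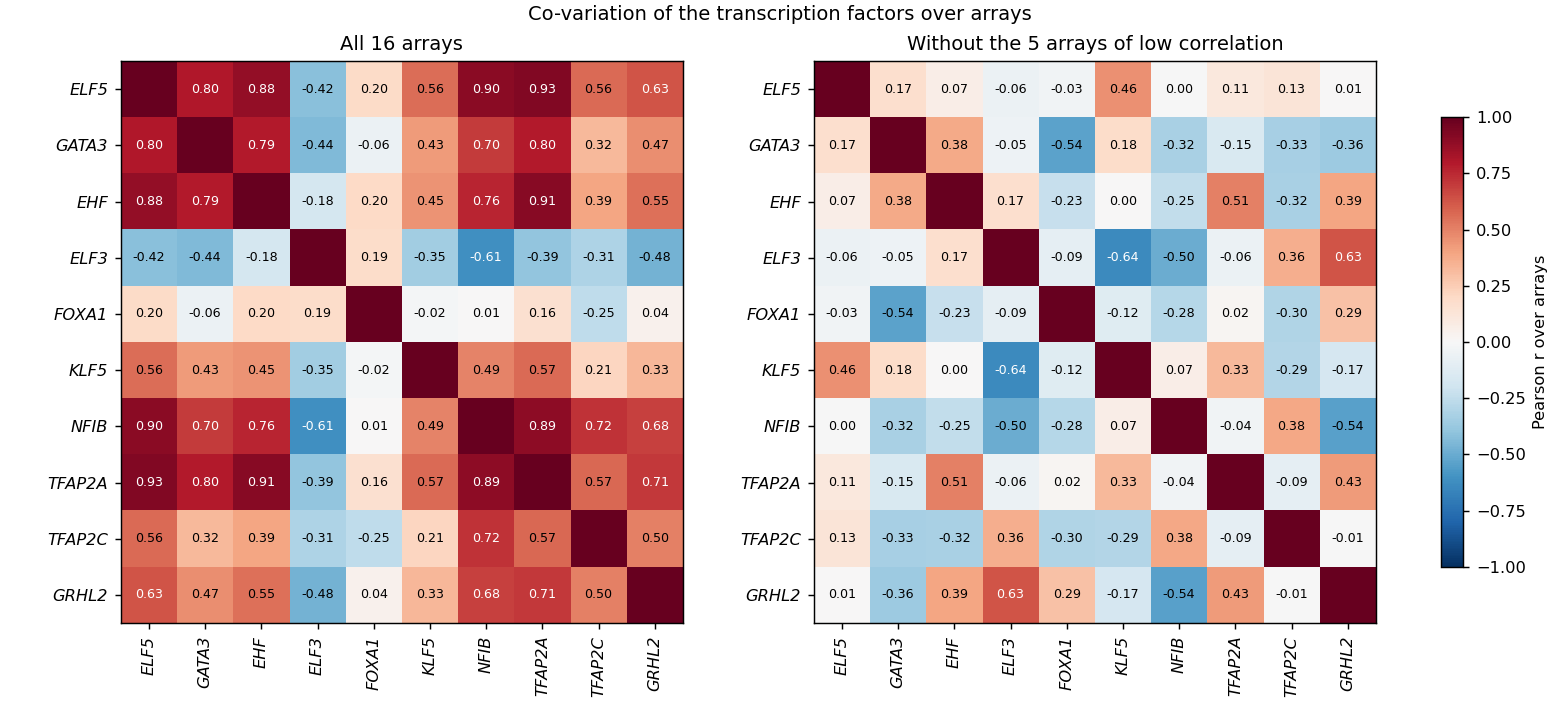
Pearson correlation between each pair of transcription factors over all 16 arrays (left) and over the 11 arrays left without those of low correlation (right), with r printed in each cell and the colour scale running from -1 to 1. On the left ELF5 and TFAP2A have r = 0.93, and on the right 0.11.

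The high values over 16 arrays were common in the data set. At r over 0.8, TFAP2A was joined by 11.5% of all genes, NFIB by 11.2%, ELF5 by 9.07% and EHF by 6.24%, against 0.119%, 0.087%, 0.358% and 0.163% on the 11 arrays. KLF5 and FOXA1 were joined by 0% on 16 arrays. As a description, TFAP2A stood high among the genes that moved with EHF and ELF5. Only 0.217% of genes had an r with EHF as high as TFAP2A did, and 0.542% one with ELF5 as high. Such shares were taken only for the gene of a pair that comes first in the list of factors, and the reverse was not computed. Taken this way, the shares for TFAP2A with EHF and with ELF5 were the lowest among the pairs that passed on 16 arrays, and all other such pairs had larger ones. For example, 9.06% of genes had an r with EHF as high as NFIB did. For GRHL2 the share was 18.03% with TFAP2A and 19.09% with NFIB. On the 11 arrays the shares for TFAP2A with EHF and with ELF5 were 6.44% and 41.5%. The 2 pairs with an unadjusted permutation p under 0.05 on the 11 arrays both held ELF3, a dim gene: ELF3 with GRHL2 (r = 0.63, rho 0.68, p = 0.0284) and ELF3 with KLF5 (r = -0.64, rho -0.55, p = 0.0313). Both had an adjusted permutation p of 0.704, and over 16 arrays their r was -0.48 and -0.35.

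Each factor was also set against the mean of the 12 luminal epithelium markers, keratins, claudins, EPCAM, CDH1, MUC1, SPINT1 and ERBB3. That mean ran from -0.52 (CON 7) to 0.05 in CON, and from -0.09 to 0.28 in NOCON, relative to its average over all arrays. EHF (r = 0.71), ELF5 (r = 0.69) and TFAP2A (r = 0.68) had the highest correlations with it, each with an adjusted permutation p of 0.111 over the 10 factors. Their rho values were 0.02, 0.17 and 0.19, with adjusted permutation p-values of 0.887 or more. None of the 10 passed. Without CON 7 and NOCON 5, the arrays farthest from the median of the marker mean, r was -0.03 for EHF, 0.09 for ELF5 and 0.21 for TFAP2A. On the 11 arrays the highest was ELF3 (r = 0.73, permutation p = 0.0159, adjusted p = 0.159). Its rho there was 0.45 (adjusted permutation p = 0.542), and its r over 16 arrays was 0.12. Taken relative to the marker mean on each array, 0 of 10 factors passed the limma adjusted p of 0.05 between CON and NOCON, against 12 of all 26773 probe sets. This step shifts the difference of every gene by the same amount, so the order of the 10 could not change. The difference of GATA3 was then 0.20 (limma adjusted p = 0.471).

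For each factor the 2 genes with the most similar pattern were taken as those with the highest likeness, the lower of r over 16 arrays and r over the 11. They were picked from all genes for these values, which are a description with no test. EHF was closest to BAZ2B (r = 0.92 over 16 arrays and 0.86 over 11), a bromodomain gene, and to IRF2 (0.86 and 0.91), an interferon regulatory factor. TFAP2A was closest to ANKRD22 (0.83 and 0.86) and TIAL1 (0.92 and 0.83), which encodes an RNA-binding protein. GRHL2 was closest to PPFIBP2 (0.90 and 0.84), a liprin gene, and TNS3 (0.82 and 0.81), which encodes a tensin of focal adhesions. GATA3 was closest to IVD (0.87 and 0.82), an enzyme of leucine breakdown, and NCOA4 (0.84 and 0.81), a ferritin receptor. NFIB was closest to SQLE (0.82 and 0.81), an enzyme of cholesterol synthesis, and MAGT1 (0.90 and 0.80). FOXA1 was closest to ARSL (0.74 and 0.78) and RFX3 (0.74 and 0.92), a transcription factor of ciliated cells. KLF5 was closest to GREM1 (0.77 and 0.77), a secreted antagonist of bone morphogenetic proteins, and CRADD (0.76 and 0.76). TFAP2C was closest to BOLA1 (0.77 and 0.79) and RIOX1 (0.77 and 0.77). ELF5 was closest to SEPTIN4 (0.83 and 0.77) and PHF2 (0.80 and 0.71), and ELF3 to ANKS3 (0.84 and 0.78) and VPS51 (0.88 and 0.77). None of these 20 genes was itself among the 10.

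Relatives, partners and candidate targets of these factors, 88 genes in 11 lists, were examined in the same fit. None of the 88 passed the adjusted p of 0.05 with limma (lowest adjusted p 0.516), and 0 passed without the 5 arrays. An unadjusted limma p under 0.05 was found for 5 of the 88, against 8.67% of all probe sets, and an unadjusted exact permutation p under 0.05 for 6, against 10.4%. Among other ETS factors 6 of 7 had a lower mean in CON (median difference -0.11, against 0.04 without CON 7), with ELF2 at -0.31 (SE 0.25) and ETS2 at -0.24 (SE 0.15). Without CON 7, ELF2 was at -0.10 and ETS2 at -0.16, and without the 5 arrays they were at -0.05 and -0.12. Of the GATA factors and partners 6 of 8 were lower (median -0.05), the cofactors ZFPM2 and ZFPM1 differing by 0.12 (SE 0.06) and -0.09 (SE 0.06). The KLF genes had 5 of 7 lower (median -0.05), with KLF2 at -0.20 (SE 0.10) and KLF15 at -0.17 (SE 0.09), which were at -0.12 and -0.03 without the 5 arrays. All 3 other nuclear factor I genes were lower (median -0.10, against 0.02 without CON 7), NFIX by -0.10 (SE 0.11) and NFIA by -0.12 (SE 0.21). Without CON 7, NFIX was at -0.03 and NFIA at 0.02.

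The list drawn up for the AP-2 genes held TFAP2B, TFAP2D, TFAP2E, KCTD1, CITED2, CITED4 and the CP2 gene TFCP2, and 6 of these were measured. They were split, 3 lower and 3 higher (median -0.01, against 0.05 without CON 7). The coactivator CITED4 was at 0.28 (SE 0.22) and TFAP2B at 0.11 (SE 0.11), which was -0.07 without the 5 arrays. The grainyhead, CP2 and OVOL genes had 2 of 6 lower (4 of 6 without CON 7; median 0.01), both OVOL repressors, OVOL2 by -0.19 (SE 0.11) and OVOL1 by -0.09 (SE 0.05). OVOL1 averaged 3.86 ± 0.08 (SD) over 8 CON arrays and 3.95 ± 0.08 over 8 NOCON arrays, with an exact permutation p of 0.0407 before adjustment and a limma adjusted p of 0.592. FOXA2 and FOXA3 differed by -0.05 and 0.02. Of 18 hormone receptors and partners, 12 were lower (median -0.06, against 0.01 without CON 7), with the secretory factor XBP1 at -0.22 (SE 0.16), which was -0.09 without CON 7 and -0.03 without the 5 arrays, and ESR1, the oestrogen receptor, at 0.35 (SE 0.25), which was 0.66 without the 5 arrays (adjusted p = 0.531).

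Candidate targets went different ways by list, none past the threshold. Milk protein genes had 3 of 8 lower (median 0.03), and the caseins CSN1S2 and CSN2 differed by 0.12 (SE 0.05) and 0.10 (SE 0.05), with limma adjusted p-values of 0.537 and 0.557. Their exact permutation p before adjustment was 0.00357 and 0.0014, and without the 5 arrays the differences were 0.05 and 0.11. Epithelial adhesion and barrier genes, several of them known GRHL2 targets in mouse or human cells, had 13 of 14 lower, with a median difference of -0.17, against -0.0037 over all genes. RAB25, a small GTPase of epithelial membrane traffic, averaged 6.76 ± 0.40 (SD) over 8 CON arrays and 7.24 ± 0.35 over 8 NOCON arrays (difference -0.48, limma adjusted p = 0.516). The membrane protease ST14 averaged 6.71 ± 0.26 (SD) over 8 CON arrays and 7.03 ± 0.32 over 8 NOCON arrays (difference -0.32, limma adjusted p = 0.553). Without CON 7 the list had 10 of 14 lower and a median of -0.08, and without the 5 arrays 8 of 14 and -0.03, with RAB25 at -0.27 and ST14 at -0.12. Luminal keratins, ERBB receptors and other luminal genes had 7 of 9 lower (median -0.07), against 4 of 9 and a median of 0.002 without the 5 arrays, with KRT18 at -0.30 (SE 0.11) and KRT7 at -0.23 (SE 0.16). The 12 luminal markers all belong to the last 2 lists. Of these 12, 11 had a lower mean in CON, and 7 of 12 without the 5 arrays. The part of epithelial content in these counts was not tested.

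**Figure D5:**
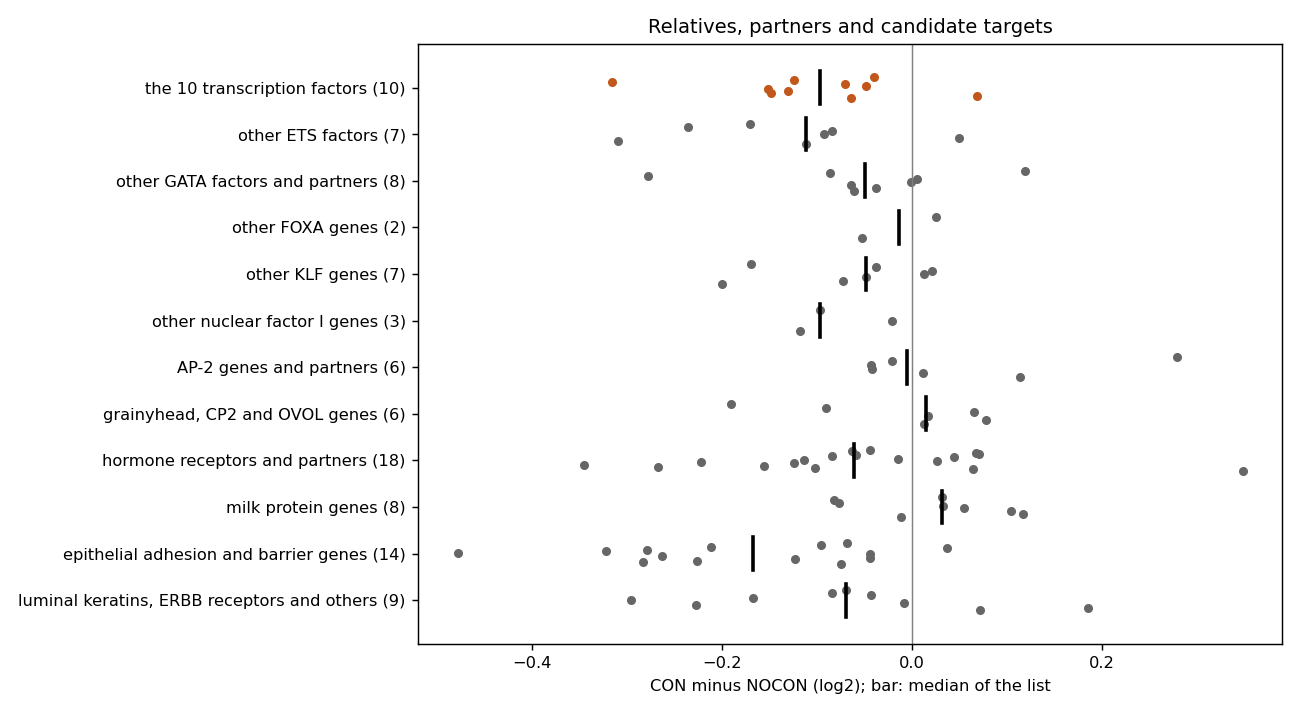
Difference in means (CON minus NOCON, log2, x axis) of the 10 transcription factors and of 11 lists of relatives, partners and candidate targets, with 1 point per gene, the number of genes in brackets and a black bar at each median. Points of most lists lie on both sides of 0, and the adhesion and barrier list has the lowest median, -0.17.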

How the data were processed

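Biotin-labelled cRNA was hybridised to Affymetrix arrays, per the labels' protocols, 1 array for each of 16 heifers. The values are the log2 expression that the authors deposited; the submitters' processing notes name GCOS and RMA and give no version. The log base, chip definition and filters were not given in the sources used here, and log2 was read from RMA and from values between 2.73 and 12.66. Of 26773 probe sets, 18790 carry 1 symbol, 385 several and 7598 none in the array annotation; the brightest probe set stood for a gene, and all 10 gene IDs carried the same symbol in RefSeq.

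CON was compared with NOCON over all probe sets with limma 3.58.1 (lmFit, eBayes) in R 4.3.3, with Benjamini-Hochberg adjustment, beside an exact permutation test. Arrays of low correlation are those whose median correlation fell below the typical array by over 5 scaled median absolute deviations. Correlations used 100000 permutations (numpy 2.4.6). Scripts were tested on simulated data. Members, lists, alternatives and the rule for named genes (the 10 factors, the 2 genes of each list with the smallest p, the 2 most similar genes of each factor) were chosen with earlier results of these data known. The alternatives were other normalizations, filters, variance models, array weights, single arrays or the low-correlation arrays left out and the replicate block. Detection and RNA integrity were not measured, and sequences are not analysed here.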

Additional observations from a re-analysis of the deposited data

Results flagged for a closer look

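Each factor was examined within each feeding group for an array whose gap to its nearest neighbour took up most of the group's range (Dixon's test at its 95% critical value). Of 20 sets of 8 arrays, 7 held such an array, and chance flags about 1 in 20. In this data set such arrays were more common: 26.9% of all genes held one in CON and 15.1% in NOCON. Among the 2306 genes with a mean of 7 or more, CON 7 was such a low array for 49.3% and NOCON 1 for 20.7%. On CON 7, 5 factors lay far below the other CON arrays: ELF5 at 10.74, GATA3 at 7.85, EHF at 9.44, NFIB at 9.23 and TFAP2A at 5.59. On NOCON 1, 2 factors lay far below the other NOCON arrays, ELF5 at 11.05 and NFIB at 9.37. Both arrays are among the 5 of low correlation, and the values of 1 array share its RNA and hybridisation, so the 7 are not independent of each other.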

How the results depend on the processing

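The count of the 10 factors that differed between CON and NOCON was 0 under every alternative run, as was that of the 88 relatives, partners and candidate targets. Over all probe sets, 16 were called (10 higher and 6 lower in CON). This was 67 with array weights, 4 with the replicate block and 0 with the exact permutation test, where 2794 had an unadjusted p under 0.05, and it was 16 to 20 with 1 array left out. A further quantile normalization called 22, 11 higher and 11 lower. The labels do not say whether replicate numbers pair the heifers. Correlations between same-numbered arrays ran from -0.43 to 0.29, 2 of 8 were over 0.1, and 1 of 8 CON arrays was closest to its own number. The lowest belong to numbers 1 and 7, which hold NOCON 1 and CON 7, so this check cannot exclude a pairing. Of the 45 pairs, 14 were called over 16 arrays, 16 on deviations from group means (all 14 among them), 10 after quantile normalization (9 of the 14 among them), 0 with Spearman's rho, 0 without the 5 arrays of low correlation (also 0 there with Spearman's rho), 6 within CON, 2 within NOCON, 0 within CON without CON 7, and 6 to 17 with 1 array left out, the 6 both without CON 7 and without NOCON 1. The fits within CON without CON 7 and with rho on 11 arrays were chosen after seeing the data.

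Directions that turned belong to differences or correlations past no threshold in the setting named, and the cause was not tested. Without the 5 arrays, ELF5 was 0.0024, KLF5 0.012, NFIA 0.046 and TFAP2B -0.068. With array weights, NFIA was 0.039 and TFAP2B -0.041. FOXA3 was -0.00996 after quantile normalization and -0.000188 after median centring. Relative to the luminal marker mean, ELF5 was 0.0697, ELF3 0.0034, KLF5 0.086, NFIB 0.064, TFAP2C 0.0102, GRHL2 0.095, ZFPM1 0.048, FOXA2 0.082, NFIX 0.037, NFIA 0.016 and OVOL1 0.044. With 1 array left out, ELF5 ran from -0.10 to 0.0095, NFIB from -0.18 to 0.052, GRHL2 from -0.16 to 0.041 and NFIA from -0.24 to 0.022. On the 11 arrays r was -0.0041 for ELF5 and NFIB, -0.32 for GATA3 and NFIB, -0.155 for GATA3 and TFAP2A, -0.25 for EHF and NFIB, -0.038 for NFIB and TFAP2A and -0.54 for NFIB and GRHL2. Spearman's rho there was -0.064 for ELF5 and NFIB, -0.027 for ELF5 and TFAP2A, -0.082 for ELF5 and GRHL2, -0.28 for GATA3 and NFIB, -0.19 for GATA3 and TFAP2A, -0.20 for EHF and NFIB, -0.20 for NFIB and TFAP2A and -0.67 for NFIB and GRHL2.

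The number of arrays, 8 a group, limits the precision. The dim signal of ELF3 and FOXA1 can shrink their differences, while their SEs (0.08 and 0.10) were below that of TFAP2A (0.27).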

Other observations

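Markers of other cell types varied between arrays, with ranges that overlapped between the feeding groups. The mean of 7 endothelium markers, relative to its average, ran from -1.27 (CON 7) to 0.54 in CON and from -0.77 to 0.51 in NOCON. The mean of 9 basal and myoepithelium markers ran from -0.82 (CON 7) to 0.70 (CON 5) in CON and from -0.47 to 0.35 in NOCON. Fibroblast markers ran from -0.35 to 0.25 in CON and from -0.31 to 0.27 in NOCON, and leukocyte markers from -0.10 to 0.17 in CON and from -0.13 to 0.12 in NOCON. No single marker of the 7 cell type lists passed limma's adjusted p of 0.05. Of 9 adipocyte markers, CD36 (11.31), FABP4 (10.80) and LPL (10.50), which milk-making cells also express, were bright, and so was CIDEA (8.70). LEP and CIDEC lay under the array median on all 16 arrays, PLIN1 on 13, ADIPOQ on 11 and PLIN4 on 1.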
